A study of Mus musculus with 5 samples.

Results

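The loss of 1 copy of Rela was read here in spleens that already lacked Sirt6. Of the 5 arrays in the series, all 5 entered the comparison. On 3 arrays the spleens were labelled S6-/- RA+/-, which is Sirt6 knockout with Rela heterozygous. On 2 arrays they were labelled S6-/-, which is Sirt6 knockout. The S6-/- label states no Rela genotype, and these spleens were taken to have both copies of Rela. Both groups lack Sirt6, and no array of a Rela heterozygous spleen with intact Sirt6 was part of the comparison, so every difference is one within the Sirt6 knockout. Each array carried 15 ug of amplified RNA per dye, with the mutant spleen in Cy5 and a pool of wild-type spleen in Cy3. The pool and the dye orientation are the same on all arrays and so drop out when the groups are subtracted. The sources used here do not give the strain, age, sex, alleles, the number of animals behind an array or the source of the pool. The labels call each array a separate spleen sample, and the p-values cover nothing beyond the spread among those samples. Nor do they state the log base, direction or normalization of the deposited ratios. They were read as log2 of Cy5 over Cy3, so that a value above 0 means more signal from the mutant spleen than from the pool.

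Rela encodes p65, the subunit of the transcription factor NF-kB that carries a strong activation domain. In resting cells NF-kB dimers are held in the cytoplasm by inhibitors of the IkB family, and signals from Toll-like, tumour necrosis factor and antigen receptors lead an IkB kinase complex to mark these inhibitors for destruction. Several inhibitors, Nfkbia and Tnfaip3 among them, are themselves NF-kB target genes and close a feedback loop. SIRT6 is a sirtuin, a deacetylase bound to chromatin, that has been described at promoters bound by p65. Mice without Sirt6 develop a wasting syndrome with loss of lymphocytes and low blood sugar and IGF-1. The spleen holds B and T cells, macrophages that clear old red cells, and in the mouse also islands of red cell and granulocyte production, in a frame of stromal, smooth muscle and endothelial cells under a mesothelial capsule.

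After centring each array on its median and averaging the probes of a gene, 9000 genes had a value on all 5 arrays and were compared. Values were present for 19768 to 22871 of the 38784 spots, depending on the array. The knockout arrays correlated with each other across the 9000 genes (Pearson r = 0.82), and correlations among the heterozygous arrays were lower (0.33 at most). The library labelled heterozygous 1 correlated at 0.39 and 0.59 with knockout arrays 1 and 2, and heterozygous array 2 at 0.46 and 0.38. Each of these was above the 0.33 between the library labelled heterozygous 1 and heterozygous array 2. Heterozygous array 3 stood apart, with r = -0.16 and -0.02 with the knockout arrays, -0.01 with heterozygous array 2 and 0.21 with the library labelled heterozygous 1. Genes are not independent replicates, and all of these ratios share the pool, so the correlations are descriptions. Marker genes of B cells, T cells, macrophages, natural killer cells, neutrophils and endothelium had values on all arrays, but a ratio to a spleen pool gives no level, so the tissue label cannot be checked further. The Y-linked genes Uty, Kdm5d and Eif2s3y lay between 1.45 and 2.96 on all 5 arrays, and their groups differed by -0.08 ± 0.42, 0.03 ± 0.40 and -0.61 ± 0.46 (SE, n = 3 and 2, limma adjusted p = 0.976, 0.994 and 0.769).

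The targeted genes did not settle the labels. The only Rela probe on the array read 0.48 and 1.08 on the knockout arrays, 1.15 on the library labelled heterozygous 1, and -0.08 and -0.20 on heterozygous arrays 2 and 3. Heterozygous arrays 2 and 3 lay below both knockout arrays, whereas the library labelled heterozygous 1 lay above both, so the groups overlapped. The difference was -0.49 ± 0.56 (SE, n = 3 and 2, limma adjusted p = 0.858), and -0.92 without that library (adjusted p = 0.354). The sources used here do not place this probe inside or outside the deletion. Sirt6 had 2 probes, of which 1 had no value on any array and the other had a value only on heterozygous array 2, at -4.31. The library labelled heterozygous 1 is therefore called by its label throughout, and the median of each list below is also given without it and without heterozygous array 3.

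Across the 9000 genes, limma called 0 at an adjusted p under 0.05, a share of 0% (smallest adjusted p = 0.204). An unadjusted p under 0.05 was reached by 794 genes, or 8.82% of those tested, with 313 higher on the heterozygous arrays (3.48%) and 481 lower (5.34%). The groups did not overlap for 2536 genes (28.2%), of which 1296 were higher (14.4%) and 1240 lower (13.8%) on the heterozygous arrays. The heterozygous mean lay above the knockout mean for 4636 genes (51.5%), with a median difference of 0.03. With 3 arrays against 2, an exact permutation test has 10 splits and cannot go below p = 0.1 for any gene. 3 other settings of limma made calls, 67 with array weights, 135 with the least variable genes left out and 42 with the replicate number as a block, whereas none was made in any of the other alternatives. The genes below are therefore described as higher or lower by their values, and none of them passed the main test.

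**Figure D1:**
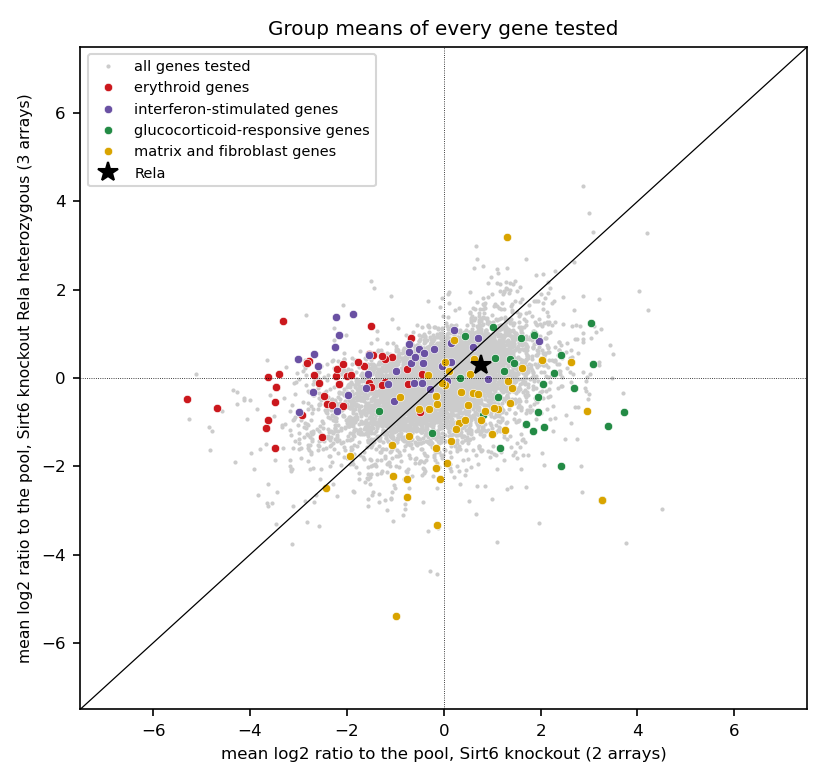
Mean log2 ratio to the wild-type pool of each of the 9000 genes in the Sirt6 knockout group (2 arrays, horizontal axis) and in the Sirt6 knockout Rela heterozygous group (3 arrays, vertical axis); grey points are all genes, colours mark erythroid, interferon-stimulated, glucocorticoid-responsive and matrix genes, the star is Rela and the diagonal is equality. Erythroid and interferon-stimulated genes lie mostly above the diagonal (median differences of 2.05 and 1.08), and glucocorticoid-responsive and matrix genes mostly below it (-1.84 and -1.39).

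The naming rule gave 10 genes lower on the heterozygous arrays, of which Lox and Pdgfra are in the list of matrix and fibroblast genes. Fmo2, a flavin-containing monooxygenase, read 2.21 and 1.72 on the knockout arrays, -4.21 on the library labelled heterozygous 1, and -2.88 and -2.74 on heterozygous arrays 2 and 3. It was above the pool on both knockout arrays and far below it on all heterozygous arrays, a difference of -5.24 ± 0.58 (SE, n = 3 and 2, limma adjusted p = 0.204). Gpc3, a cell surface proteoglycan that restrains body growth, read 1.26 and 0.72 against -2.79, -2.60 and -2.84 in the same order of arrays, the tightest of these patterns on the heterozygous side. Pdgfra, the receptor for platelet-derived growth factor that marks fibroblasts, read 2.87 and 3.04 against -0.14, -1.01 and -1.11. Cdkn1c, an imprinted cyclin-dependent kinase inhibitor, read 1.74 and 1.75 against -1.61, -1.29 and -2.35, without overlap. The differences of Gpc3, Pdgfra and Cdkn1c were -3.73 ± 0.42, -3.71 ± 0.48 and -3.50 ± 0.48 (SE, limma adjusted p = 0.204 for each), and -3.71, -4.02 and -3.56 without the library labelled heterozygous 1.

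Larger differences were seen for 2 members of the stefin A family and for lysyl oxidase. Stfa3, a cysteine protease inhibitor made by granulocytes, read 4.35 and 3.17 on the knockout arrays, -4.72 on the library labelled heterozygous 1, and -1.55 and -4.91 on heterozygous arrays 2 and 3. Its relative Stfa2l1 read 5.08 and 3.92 against -3.54, -0.46 and -4.89. In both genes heterozygous array 2 lay nearer to the pool than the other heterozygous arrays did. The differences were -7.48 ± 1.07 and -7.46 ± 1.24 (SE, limma adjusted p = 0.204 and 0.220), and since stefin A genes are near-identical copies their probes may share targets. Lox, which crosslinks collagen and elastin, read 3.03 and 3.51 against -3.86, -1.09 and -3.37, a difference of -6.04 ± 0.85. Igfbp3, Klf15, Tril and Oit3 completed the 10 genes, with differences from -3.15 to -4.03. Scara5, a ferritin receptor of stromal cells, had one of the 5 widest gaps between the groups, at 2.63 and 3.06 against -1.36, -4.07 and -2.30.

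On the other side, 4 of the 10 genes of smallest p were in the list of interferon-stimulated genes. Cd300ld, an activating receptor of myeloid cells, read -1.34 and -1.66 on the knockout arrays, 1.97 on the library labelled heterozygous 1, and 2.98 and 1.64 on heterozygous arrays 2 and 3. Its difference was 3.69 ± 0.53 (SE, n = 3 and 2, limma adjusted p = 0.204), and 3.81 without the library labelled heterozygous 1. Oas1a, Usp18, Ifit1 and Oas1g are those 4, and are described with their list. The other members were Ifi27l2a, Cldn10, a tight junction protein, Abhd2, a hydrolase, Spag5, a protein of the mitotic spindle, and Klre1, a lectin-like receptor of natural killer cells, with differences from 2.55 to 4.05. No Cldn10 probe had a value on all 5 arrays, so its values come from different probes on different arrays. The second Spag5 probe also lacked a value on some arrays, and its only complete probe gave 1.99 in place of 2.65. The genes with the widest gaps also included Epb42 and Slc4a1, both of the red cell membrane, and Btnl10, a butyrophilin-like gene that read -4.45 and -4.09 against -1.33, -1.24 and 1.62.

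**Figure D2:**
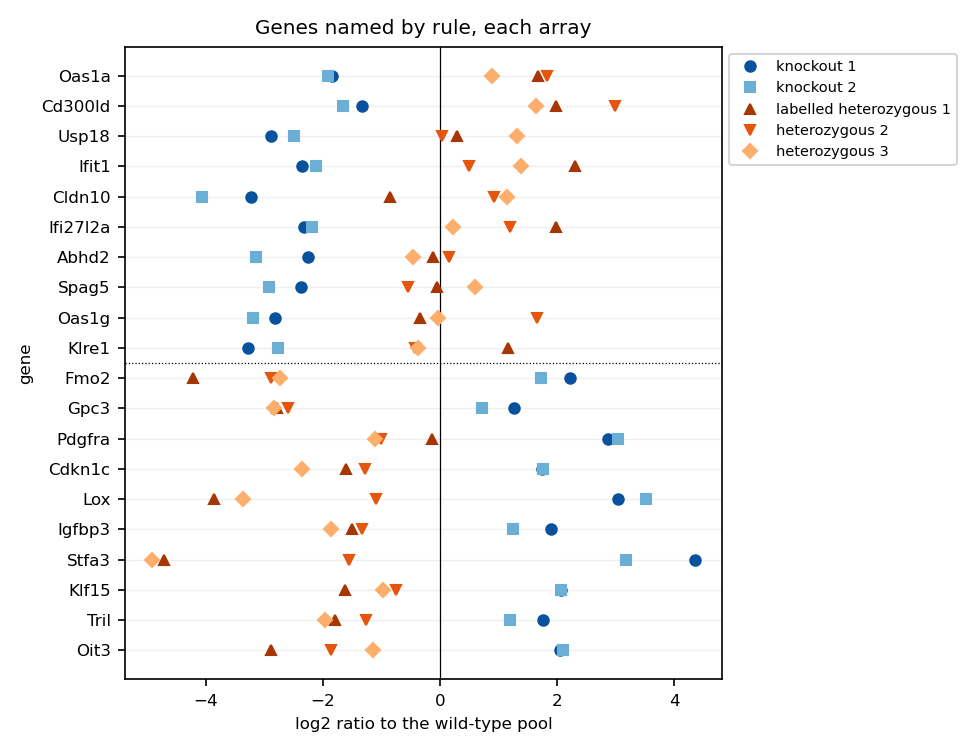
Log2 ratio to the pool on each of the 5 arrays for the 10 genes higher and the 10 genes lower on the heterozygous arrays that the naming rule chose; each point is 1 array. In all 20 genes the knockout and heterozygous arrays do not overlap, which the rule required, and none passed limma's adjusted p under 0.05.

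The NF-kB genes themselves showed no common direction. Of 25 subunits, inhibitors and kinases listed, 23 were on the array and 22 were tested; Nfkb1, Chuk and Traf2 were not. On the heterozygous arrays 10 were higher and 12 lower, with a median difference of -0.04 beside 0.03 over all genes, and 0 passed limma's test. The median was -0.54, with 17 of 22 lower, without the library labelled heterozygous 1, and 0.19, with 8 of 22 lower, without heterozygous array 3. It was -0.36 without knockout array 1, and above 0 without knockout array 2 (0.13) and with the replicate block (0.19). The direction of the family thus turned with the arrays used.

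Among the subunits, Rela and Rel lay lower on average and Relb and Nfkb2 higher, and in each of them the groups overlapped. Relb, the partner of p100 in the non-canonical pathway, read -0.01 and 0.46 on the knockout arrays, 1.23 on the library labelled heterozygous 1, and 0.17 and -0.40 on heterozygous arrays 2 and 3. Nfkb2, which encodes p100, read -0.50 and 0.42 against 1.62, 0.35 and -0.34. In both, the library labelled heterozygous 1 was the highest of the 5 arrays, as for Rela. Rel, the subunit c-Rel of lymphocytes, read -1.13 and -1.27 against -0.74, -0.34 and -3.73, with heterozygous array 3 far below the others, and its difference of -0.40 became 0.66 without that array. The differences of Relb and Nfkb2 were 0.11 ± 0.58 and 0.58 ± 0.68 (SE, n = 3 and 2, limma adjusted p = 0.977 and 0.860).

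Among the 22 members, the inhibitor Nfkbib separated the groups by the most, and the other inhibitors by less or not at all. Nfkbib, which encodes the cytoplasmic inhibitor IkB beta, read 2.51 and 2.74 on the knockout arrays, 0.28 on the library labelled heterozygous 1, and 0.79 and 0.18 on heterozygous arrays 2 and 3. All heterozygous arrays lay below both knockout arrays, with a difference of -2.21 ± 0.43 (SE, limma adjusted p = 0.253), and of -2.14 without the library labelled heterozygous 1. Nfkbia, which encodes IkB alpha, read 1.34 and 1.57 against 1.14, 0.76 and -0.90, and Tnfaip3, the ubiquitin-editing inhibitor A20, read 0.73 and 1.27 against 0.51, 0.32 and -0.96. Neither overlapped between the groups, though heterozygous array 3 lay far below the other heterozygous arrays in both. Their differences were -1.12 ± 0.68 and -1.04 ± 0.58 (SE, limma adjusted p = 0.682 and 0.666). They were -0.50 and -0.58 without heterozygous array 3, and -1.53 and -1.32 without the library labelled heterozygous 1. Tnip2, an adaptor of A20, was the fourth member that was lower without overlap, at 1.19 and 1.16 against 1.00, -0.51 and -0.40. These 4 of 22 members are 18.2%, beside 13.8% of all genes. Nfkbie, Nfkbid, Bcl3 and Nfkbiz, further proteins of the IkB family, differed by 0.10, 0.01, -0.31 and -0.85.

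Of the 22 members 1, a kinase, was higher without overlap, beside 14.4% of all genes. Map3k7, the kinase TAK1 that activates the IkB kinase complex, read -0.59 and -1.04 on the knockout arrays, 0.76 on the library labelled heterozygous 1, and 0.35 and 0.91 on heterozygous arrays 2 and 3, a difference of 1.49 ± 0.44 (SE, limma adjusted p = 0.406). Ikbkb, the catalytic subunit IKK beta, differed by 0.04 ± 0.67, and Ikbke by 0.06 ± 0.69. The TAK1 partners Tab1 and Tab2 differed by 0.41 and 0.03. Ikbkg and Tnip1 had probes that disagreed: the averages were -0.76 and 0.60, whereas the probes with a value on all arrays gave -0.26 to 0.89 for Ikbkg and -0.29 for Tnip1.

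**Figure D3:**
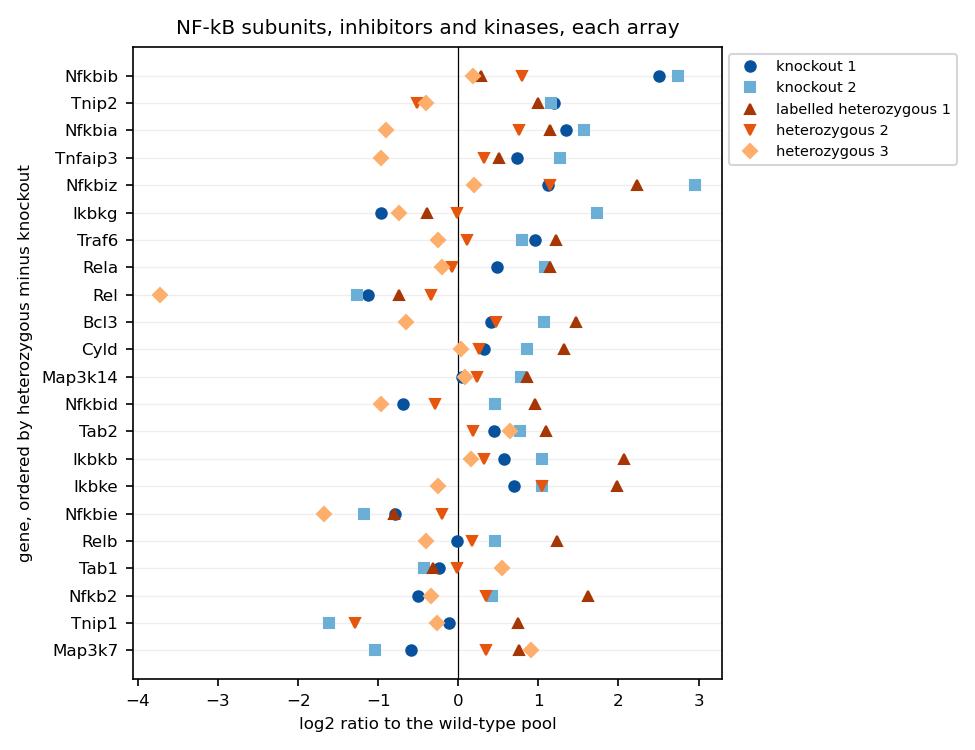
Log2 ratio to the pool on each of the 5 arrays for the 22 tested NF-kB subunits, inhibitors and kinases; each point is 1 array. Nfkbib separates the groups by the most, and in Rela, Relb and Nfkb2 the library labelled heterozygous 1 is the highest of the 5 arrays.

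Known NF-kB targets lay in both directions. Of 71 listed, 68 were on the array and 54 were tested, of which 31 were higher and 23 lower on the heterozygous arrays, with a median difference of 0.10. The groups did not overlap for 7 higher and 11 lower targets, which is 13% and 20.4% of the list beside 14.4% and 13.8% of all genes. Cxcl13, the chemokine that draws B cells to follicles, read 0.47 and 0.57 against -1.13, -0.91 and -1.38. Its difference was -1.66 ± 0.41 (SE, limma adjusted p = 0.350), the smallest p in the list. Vcam1, an adhesion molecule of stroma and red pulp macrophages, read 2.71 and 2.74 against 1.53, 1.36 and 0.70. Ier3, an early response gene, differed by -1.82 ± 0.54. On the other side stood Irf7, a transcription factor of the interferon response and itself interferon-induced, at -0.85 and -0.59 against 0.97, 0.66 and 0.71, and Tnfaip2, at 1.85 ± 0.51 on average but 1.06 by its only complete probe. The list median was 0.06 without the library labelled heterozygous 1 and 0.48 without heterozygous array 3.

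Promoter sequence is printed for genes of both feedback and interferon response, because these are the groups whose control elements are best described. In the 250 bases before the gene start in RefSeq (GRCm38.p6), a kappaB consensus was found on either strand in 8.2% of 27025 promoters, in 9 of 18 NF-kB subunit and inhibitor genes with a promoter entry (50%) and in 16 of 42 target genes (38.1%). The median difference of NF-kB subunit and inhibitor genes was 0.01 with a match and -0.49 without. Where a gene had several promoter entries, the entry with most matches was counted and printed. A20 had another entry, without a match. Capitals mark the matches in the promoters of IkB alpha (chr12:55492648-55492897, minus strand) and A20 (chr10:19015411-19015660, minus strand).
Nfkbia: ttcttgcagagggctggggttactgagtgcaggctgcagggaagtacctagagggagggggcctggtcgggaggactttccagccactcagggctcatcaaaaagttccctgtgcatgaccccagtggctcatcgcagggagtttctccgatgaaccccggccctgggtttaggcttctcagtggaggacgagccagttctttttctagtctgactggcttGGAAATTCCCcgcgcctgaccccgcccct
Tnfaip3: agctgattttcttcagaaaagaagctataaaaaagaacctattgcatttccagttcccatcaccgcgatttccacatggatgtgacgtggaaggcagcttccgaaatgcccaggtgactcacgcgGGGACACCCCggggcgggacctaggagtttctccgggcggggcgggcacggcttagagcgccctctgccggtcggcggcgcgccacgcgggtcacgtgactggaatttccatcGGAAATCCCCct
A match is a run of letters and does not show that p65 binds there.

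Interferon-stimulated genes were mostly higher on the heterozygous arrays. These genes are switched on through the STAT and IRF factors by type I interferon and hinder viral replication. Of 50 listed, 40 were on the array and 37 were tested, of which 34 were higher and 3 lower on the heterozygous arrays, with a median difference of 1.08 beside 0.03 over all genes. The groups did not overlap for 21 higher members, 56.8% of the list beside 14.4% of all genes, and 15 had an unadjusted p under 0.05. None passed the adjusted test. The list median was -0.66 and -0.90 on the knockout arrays, 0.16 on the library labelled heterozygous 1, and 0.51 and -0.12 on heterozygous arrays 2 and 3, so the knockout spleens lay below the pool and the heterozygous spleens near it. It was 1.11 without the library labelled heterozygous 1 and 1.23 without heterozygous array 3.

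Oas1a, a sensor of double-stranded RNA that activates RNase L, read -1.84 and -1.92 on the knockout arrays, 1.67 on the library labelled heterozygous 1, and 1.82 and 0.88 on heterozygous arrays 2 and 3. The difference was 3.34 ± 0.47 (SE, n = 3 and 2, limma adjusted p = 0.204), and 3.23 without the library labelled heterozygous 1. Its neighbour Oas1g read -2.82 and -3.20 against -0.34, 1.65 and -0.03, and the near-identical copies of this family may share signal. Usp18, which removes ISG15 from proteins and dampens interferon signalling, read -2.88 and -2.49 against 0.29, 0.03 and 1.31. Ifit1, which binds viral RNA ends, read -2.35 and -2.11 against 2.30, 0.50 and 1.38. In all of these the lowest heterozygous array was above the highest knockout array by more than the spread within the knockout pair. They were named for a small p without overlap, which favours such gaps, so this is no separate result. The differences of Usp18 and Ifit1 were 3.23 ± 0.53 and 3.62 ± 0.60 (SE, limma adjusted p = 0.220 for both), and that of Cmpk2, a mitochondrial nucleotide kinase induced by interferon, was 2.94 ± 0.59 (adjusted p = 0.257).

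The motif GAAA, NN, GAAA, written without a break, is a core of the interferon-stimulated response element and was searched on both strands with overlapping matches shown as 1 run. It occurred in 3.5% of the 27025 promoters, in 3.4% of the 7387 tested genes with an entry, and in 13 of 31 interferon-stimulated genes (41.9%). The median difference was 1.60 for the 13 members with a match and 0.50 for the others. Over the 7387 tested genes with an entry it was 0.12 with a match and 0.03 without. Interferon-stimulated genes with a kappaB match also had a median of 1.60, and those without it 1.15. Capitals mark the matches in Oas1a (chr5:120907526-120907775, minus strand), Oas1g (chr5:120887614-120887863, minus strand) and Ifit1 (chr19:34640639-34640888, plus strand), where it lies on the opposite strand and reads TTTC, NN, TTTC.
Oas1a: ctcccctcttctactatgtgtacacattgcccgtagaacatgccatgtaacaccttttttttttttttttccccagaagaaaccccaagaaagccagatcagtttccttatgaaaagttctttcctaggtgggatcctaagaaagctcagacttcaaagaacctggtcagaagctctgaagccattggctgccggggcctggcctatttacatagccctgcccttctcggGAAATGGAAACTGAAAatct
Oas1g: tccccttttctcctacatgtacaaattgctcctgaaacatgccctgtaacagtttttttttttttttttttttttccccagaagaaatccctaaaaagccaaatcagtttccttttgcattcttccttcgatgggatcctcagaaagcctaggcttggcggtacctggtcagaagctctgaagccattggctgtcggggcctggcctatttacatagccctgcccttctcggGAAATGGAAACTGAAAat
Ifit1: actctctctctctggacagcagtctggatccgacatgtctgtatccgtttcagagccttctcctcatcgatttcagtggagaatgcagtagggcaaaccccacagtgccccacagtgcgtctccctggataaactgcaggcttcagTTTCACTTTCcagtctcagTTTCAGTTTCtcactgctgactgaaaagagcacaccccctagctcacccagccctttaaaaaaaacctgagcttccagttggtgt
The promoters of Oas1a and Oas1g carry the same capitalised run next to the gene start.

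Glucocorticoid-responsive genes were lower as a group. Their member of smallest p was Lox, described above, which is also counted with the matrix and fibroblast genes. These genes respond to the adrenal stress hormone through the glucocorticoid receptor. Of 36 listed, 33 were on the array and 30 were tested, of which 27 were lower and 3 higher on the heterozygous arrays, with a median difference of -1.84. The groups did not overlap for 20 lower members (66.7%, beside 13.8% of all genes), 17 had an unadjusted p under 0.05, and 0 passed the adjusted test. The list median was 1.71 and 1.78 on the knockout arrays, -0.53 on the library labelled heterozygous 1, and 0.49 and -0.40 on heterozygous arrays 2 and 3. It was -1.85 without the library labelled heterozygous 1 and -1.77 without heterozygous array 3.

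Klf15 and Klf9, transcription factors induced by the receptor, showed the pattern plainly. Klf15 read 2.06 and 2.07 on the knockout arrays, -1.62 on the library labelled heterozygous 1, and -0.75 and -0.97 on heterozygous arrays 2 and 3, a difference of -3.18 ± 0.46 (SE, n = 3 and 2, limma adjusted p = 0.204). Klf9 read 2.68 and 2.72 against -0.64, 0.23 and -0.27, a difference of -2.93 ± 0.45 (adjusted p = 0.213). Cebpd, a factor of the acute phase, read 3.52 and 3.94 against -0.05, 0.10 and -2.35, with heterozygous array 3 the lowest. Errfi1, a feedback inhibitor of the EGF receptor, differed by -4.46 ± 0.66, though its knockout arrays were far apart, at 2.39 and 4.37. A glucocorticoid response element, searched on both strands as GNACA and TGTNC with NNN between them, lay in 3 of 27 list promoters (11.1%) beside 0.4% of all promoters. The median difference of list members was -1.64 with a match and -1.67 without.

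Circadian clock and immediate early genes lay lower too, with more spread. Of 17 tested clock genes 15 were lower and 8 did not overlap (47.1%, beside 13.8% of all genes), with a median difference of -0.75, which was -0.83 without the library labelled heterozygous 1 and -0.38 without heterozygous array 3. Nr1d1, the repressor REV-ERB alpha, read 1.76 and 1.19 against 0.37, -1.61 and -1.10, and Per1, a clock gene that glucocorticoids also induce, read 0.98 and 1.28 against -0.92, -0.73 and 0.36. The sources used here do not give the time of day at which tissue was taken. Of 24 tested immediate early genes 20 were lower and 7 did not overlap (29.2%, beside 13.8% of all genes), with a median of -0.88 that was -1.42 without knockout array 1, -0.20 without knockout array 2, -1.05 without the library labelled heterozygous 1 and -0.34 without heterozygous array 3. Egr1, a zinc finger factor of the first wave, read 1.61 and 5.32 against 1.40, -0.29 and -1.11, with knockout array 2 far above the other arrays. Dusp1, a phosphatase that ends MAP kinase signals, was steadier, at 2.91 and 3.27 against -0.33, 0.96 and 0.34.

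Growth hormone and IGF genes were mostly lower, with 3 members higher. Of 29 listed, 26 were on the array and 23 were tested, with 20 lower, 7 of them without overlap (30.4%, beside 13.8% of all genes), and a median difference of -0.76. That median was -1.17 without knockout array 1, -0.70 without the library labelled heterozygous 1 and -0.86 without heterozygous array 3. Igfbp3, the main carrier of IGF-1 in blood, read 1.90 and 1.25 on the knockout arrays, -1.50 on the library labelled heterozygous 1, and -1.34 and -1.86 on heterozygous arrays 2 and 3. Irs1, the docking protein of the insulin and IGF-1 receptors, read 1.43 and 1.52 against -0.67, -0.66 and -1.05. Both were above the pool in the knockout spleens and below it in the heterozygous spleens, with differences of -3.15 ± 0.45 and -2.26 ± 0.41 (SE, limma adjusted p = 0.204 and 0.220). Igfbp4 and Igfbp6, further binding proteins, differed by -2.05 and -3.19. Among the 3 higher members Igfbp2 had the largest difference, at -3.59 and -4.68 against -1.35, 0.78 and -0.79, a difference of 3.68 ± 0.73 (adjusted p = 0.253).

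Genes of the stromal frame were lower on the heterozygous arrays across cell types. In whole spleen, fewer cells of a type and less RNA per cell cannot be told apart, here and in each cell type below. Of 50 tested matrix and fibroblast genes, from 70 listed, 43 were lower, 29 without overlap (58.0%, beside 13.8% of all genes, as for the lists that follow), with a median difference of -1.39. Smooth muscle genes had 18 of 19 lower, 9 without overlap (47.4%), at a median of -0.75, and mesothelial genes 13 of 17 lower, 8 without overlap (47.1%), at -0.77. Endothelial genes had 20 of 27 lower, 12 without overlap (44.4%), at -0.52. Without the library labelled heterozygous 1 these medians were -1.29, -0.91, -1.03 and -0.70, and without heterozygous array 3 they were -1.10, -0.60, -1.02 and -0.39. The endothelial median was -0.81 without knockout array 1. None of these lists had a member that passed the adjusted test.

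Within the frame, Lamb1, a laminin chain of basement membranes, had close values within each group, at 0.94 and 1.04 against -1.29, -1.26 and -1.23. Its difference was -2.25 ± 0.40 (SE, n = 3 and 2, limma adjusted p = 0.220). Ogn, a small matrix proteoglycan, was below the pool everywhere but far more so on the heterozygous arrays, at -0.54 and -1.45 against -6.59, -3.92 and -5.66. Wt1, a transcription factor of the mesothelium, read 2.32 and 3.69 against 0.43, -0.33 and -1.18. Hspb7 and Myh11, of muscle cells, differed by -4.30 ± 0.90 and -2.0 ± 0.48. Robo4, an endothelial receptor, read 1.93 and 2.36 against 1.00, -0.15 and -0.82. Ptprb, a vascular phosphatase, differed by -2.84 on average but by -1.57 in its only complete probe. Cxcl12, the chemokine that stromal cells use to hold haematopoietic precursors, read 1.78 and 1.67 against -0.67, -0.61 and -0.90, a difference of -2.45 ± 0.40 (adjusted p = 0.220), and its 4 probes gave -3.06 to -1.86. Cxcl12 was named from the chemokines and receptors, which were mostly higher. Of 31 tested 20 were higher, 9 without overlap (29.0%, beside 14.4% of all genes), and 11 lower, 4 without overlap (12.9%, beside 13.8%). Their median difference was 0.43. It was 0.20 without knockout array 2, 0.50 without the library labelled heterozygous 1 and 0.72 without heterozygous array 3.

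Neutrophil genes were mostly lower, except on heterozygous array 2, and macrophage genes differed little from the background in overlap. Of 30 tested neutrophil granule genes, from 39 listed, 27 were lower, 10 without overlap (33.3%, beside 13.8% of all genes), with a median difference of -1.04. The list median was 1.76 and 0.76 on the knockout arrays, -1.03 on the library labelled heterozygous 1, 1.41 on heterozygous array 2 and -0.60 on heterozygous array 3, so heterozygous array 2 lay between the knockout arrays. Without that array the median difference was -1.65 and 25 members were lower without overlap (83.3%, beside 23.9% of all genes). It was -1.07 without the library labelled heterozygous 1 and -0.83 without heterozygous array 3. Camp, the antimicrobial peptide of granules, read 3.49 and 2.35 against 0.20, -0.19 and -0.70, a difference of -3.15 ± 0.54 (SE, limma adjusted p = 0.220). Chil3, a chitinase-like protein, read 3.47 and 1.77 against -2.30, 0.41 and -1.13. Macrophage and complement genes had 24 of 33 lower, 6 of them without overlap (18.2%, beside 13.8% of all genes), and 4 higher without overlap (12.1%, beside 14.4%), at a median of -0.71, with Axl, a receptor for dying cells, at 1.74 and 1.60 against 0.17, 0.61 and -0.33. Spic, a factor that red pulp macrophages need, differed by -1.47 ± 0.54. The macrophage median was -0.37 without knockout array 1, -1.10 without knockout array 2, -0.68 without the library labelled heterozygous 1 and -0.51 without heterozygous array 3.

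**Figure D4:**
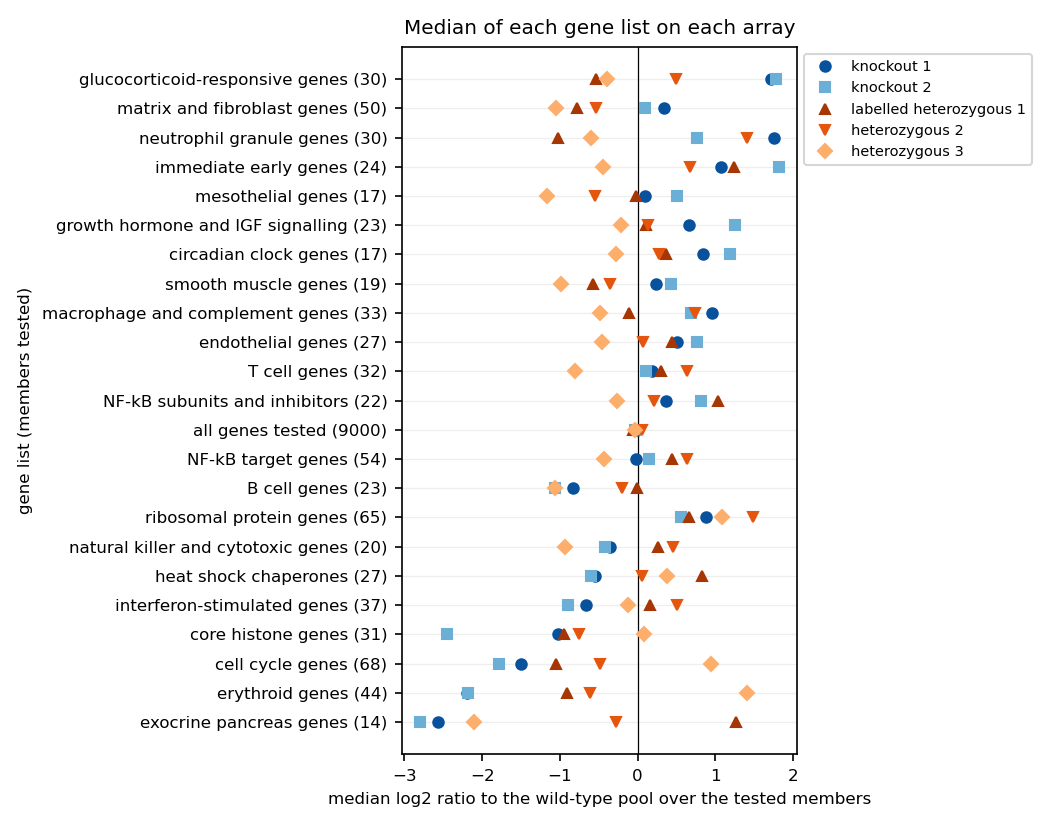
Median log2 ratio to the pool of each described gene list on each of the 5 arrays; each point is 1 array. Erythroid and cell cycle genes reach their highest point on heterozygous array 3, glucocorticoid-responsive genes lie highest on the knockout arrays (1.71 and 1.78), and interferon-stimulated genes lie lowest there.

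Lymphocyte genes differed less. B cell genes had 21 of 23 tested members higher on the heterozygous arrays, 4 without overlap (17.4%, beside 14.4% of all genes), with a median difference of 0.47. Fcer2a, the low-affinity IgE receptor of follicular B cells, read -0.81 and -1.54 on the knockout arrays, 0.13 on the library labelled heterozygous 1, and 1.08 and 0.47 on heterozygous arrays 2 and 3. The B cell median itself was -0.83 and -1.06 against -0.01, -0.20 and -1.06, so heterozygous array 3 lay at the knockout level. Its difference was 0.28 without the library labelled heterozygous 1 and 0.77 without heterozygous array 3. T cell genes had 14 of 32 higher, 0 without overlap (beside 14.4% of all genes), and 1 lower without overlap (3.1%, beside 13.8%), with a median of -0.08. That median was -0.43 without the library labelled heterozygous 1, with 24 of 32 lower, and -0.25 without heterozygous array 2. In each of these settings 8 of the 32 were lower without overlap. Of all genes, 23.8% and 23.9% were lower without overlap in the same settings, so these counts lay near the background. The T cell median was 0.27 without heterozygous array 3, and so also with the replicate block, where that array drops out. It was 0.08 with array weights, so the direction turned with the arrays used. Natural killer and cytotoxic genes had 16 of 20 higher, 5 without overlap (25%, beside 14.4% of all genes), at a median of 0.65 that was 0.38 without the library labelled heterozygous 1, 0.36 without heterozygous array 2 and 1.27 without heterozygous array 3. Gzma, a granule protease of these cells, read -1.67 and -2.12 against 0.00, -0.38 and -0.66, and Klre1 read -3.28 and -2.76 against 1.16, -0.43 and -0.38. Il18rap, a chain of the interleukin 18 receptor, ran against the list, at 2.39 and 2.27 against 1.10, 0.99 and -1.13.

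Genes of red cell precursors were higher in nearly every member. Of 56 listed, 46 were on the array and 44 were tested, of which 43 were higher and 37 did not overlap (84.1%, beside 14.4% of all genes), with a median difference of 2.05. The list median was -2.19 and -2.18 on the knockout arrays, -0.91 on the library labelled heterozygous 1, -0.61 on heterozygous array 2 and 1.41 on heterozygous array 3. The knockout spleens lay far below the pool, the library labelled heterozygous 1 and heterozygous array 2 lay nearer to it and heterozygous array 3 lay above it. The median was 1.28 without heterozygous array 3 and 2.43 without the library labelled heterozygous 1. Epb42, a protein of the red cell membrane skeleton, read -5.38 and -5.22 against -2.09, -1.42 and 2.09. Slc4a1, the anion exchanger band 3, read -3.56 and -3.06 against 0.75, -0.35 and 3.47. Their differences were 4.83 ± 1.19 and 4.60 ± 1.07 (SE, n = 3 and 2, limma adjusted p = 0.350 and 0.329). Sptb, Kel and Xk, further membrane and blood group proteins, differed by 3.65, 3.16 and 2.07.

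Proliferation genes lay higher on the heterozygous mean. All 68 tested cell cycle genes, of 77 listed, were higher on the heterozygous mean, 38 without overlap (55.9%, beside 14.4% of all genes), with a median difference of 1.28, and 0 passed the adjusted test. Their median was -1.50 and -1.78 on the knockout arrays, -1.05 on the library labelled heterozygous 1, -0.48 on heterozygous array 2 and 0.95 on heterozygous array 3, and the median difference was 1.81 without the library labelled heterozygous 1 and 0.70 without heterozygous array 3. Uhrf1, which keeps DNA methylation through replication, read -2.27 and -2.26 against 0.60, -0.68 and 0.76, a difference of 2.49 ± 0.56 (SE, limma adjusted p = 0.302). Core histone genes had 30 of 31 higher, 10 without overlap (32.3%, beside 14.4%), at a median of 1.23 that was 1.92 without knockout array 1, 0.53 without knockout array 2, 1.34 without the library labelled heterozygous 1 and 0.76 without heterozygous array 3. H2bc4 read -1.35 and -1.72 against 0.30, 0.84 and 0.55, although near-identical histone genes may share probes. The part of red cell precursors, whose median was likewise highest on heterozygous array 3, in the proliferation values was not tested.

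Genes of protein synthesis, respiration and folding were higher by less. Ribosomal protein genes had 60 of 65 higher, 28 without overlap (43.1%, beside 14.4% of all genes, as for the lists that follow), at a median difference of 0.54, and oxidative phosphorylation genes 59 of 63 higher, 20 without overlap (31.7%), at 0.43. The second median was 0.24 without knockout array 2, 0.19 without heterozygous array 3 and 0.73 without the library labelled heterozygous 1, whereas the first was 0.31 without knockout array 2, 0.72 without the library labelled heterozygous 1 and 0.54 without heterozygous array 3. Rpl13a, with 23 probes, read -1.38 and -1.61 against 0.06, 0.12 and 0.75, and its 21 complete probes gave 1.39 to 1.96. Heat shock chaperones had 22 of 27 higher, 14 without overlap (51.9%), at 0.81, which stayed between 0.69 and 0.91 when any 1 array was left out. Hspa8, the constitutive chaperone of the Hsp70 family, read 0.62 and 0.62 on the knockout arrays, 3.04 on the library labelled heterozygous 1, and 1.98 and 2.43 on heterozygous arrays 2 and 3. Its difference was 1.86 ± 0.48 (SE, limma adjusted p = 0.357), and its 3 probes gave 1.52 to 2.13.

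Markers of an organ that lies against the spleen also differed. Of 44 exocrine pancreas genes listed, 30 were on the array and 14 were tested, all 14 higher on the heterozygous mean and 7 without overlap (50%, beside 14.4% of all genes), at a median of 2.17. The list median was -2.57 and -2.80 on the knockout arrays, 1.26 on the library labelled heterozygous 1, -0.28 on heterozygous array 2 and -2.11 on heterozygous array 3. The library labelled heterozygous 1 lay highest, and heterozygous array 3 near the knockout arrays. Gp2, a membrane protein of secretory granules, read -6.24 and -3.97 against 2.60, -0.26 and -2.10. The median was 1.5 without the library labelled heterozygous 1 and 2.93 without heterozygous array 3. The part of pancreatic RNA in the other differences was not tested.

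The distance from the pool was read for genes picked on 1 knockout array alone. The 450 genes highest on knockout array 1 (5% of those tested) had a median of 1.76 there, 1.77 on knockout array 2, 0.78 on the library labelled heterozygous 1, 0.48 on heterozygous array 2 and -0.37 on heterozygous array 3. The 450 lowest had medians of -2.16 and -2.30 against -1.31, -0.83 and 0.49. Genes picked for extreme values on 1 array read nearer to the pool on any array that correlates less with it, so these medians do not show whether Rela heterozygosity brings expression towards wild type. Genes picked on knockout array 2 gave 1.53 and 2.04 against 1.20, 0.30 and -0.14 for the highest, and -1.95 and -2.55 against -1.69, -0.85 and 0.09 for the lowest. Of the 450 lowest on knockout array 1, 81.6%, 92.0% and 32.0% were still below the pool on the heterozygous arrays, in order. The pool is 1 sample shared by all arrays, so this is a description with no test.

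**Figure D5:**
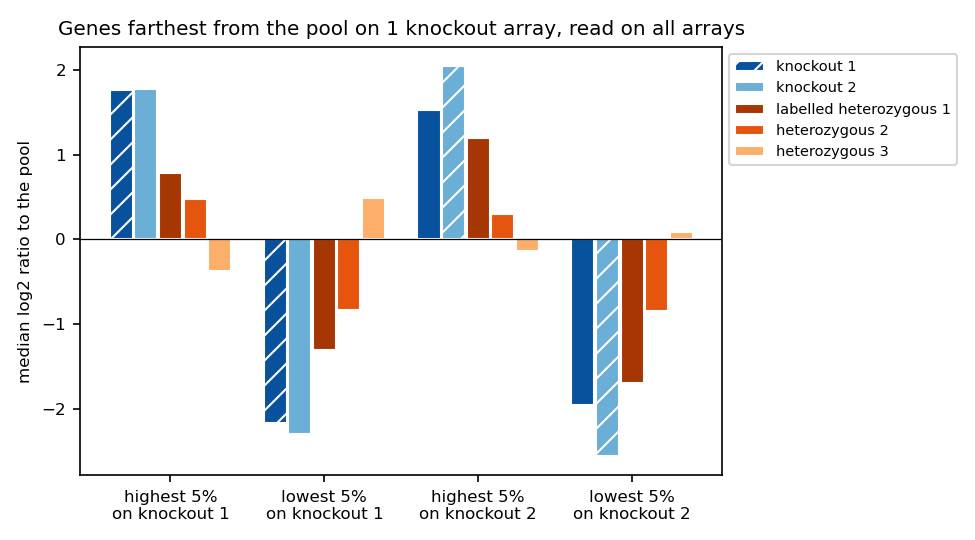
Median log2 ratio to the pool of the 450 genes highest and the 450 lowest on 1 knockout array, shown on each of the 5 arrays; bars start at 0 and hatching marks the array that chose the genes. For genes chosen on knockout array 1 the medians on knockout array 2 are as far from 0 (1.77 and -2.30), and for those chosen on knockout array 2 the medians on knockout array 1 are nearer to 0 (1.53 and -1.95). Those on the heterozygous arrays are smaller or, on heterozygous array 3, of opposite sign.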

How the data were processed

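RNA from 5 mouse spleen samples was hybridised against a wild-type spleen pool on 2-colour arrays, Cy5 for the mutant and Cy3 for the pool, per the labels. The authors deposited 1 processed log2 ratio per spot and array; the sources used here do not give its normalization or the filter behind blank cells. Spot intensities were not analysed. The log2 reading rests on the range of the deposited values (-9.12 to 8.27). Of the probes, 22204 name 1 gene and 16580 are unnamed here; columns of no known sample numbered 0.

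Centring subtracted each array's median, spots and then probes of a gene were averaged, and the 9000 genes valued on all arrays were fitted with limma 3.58.1 (lmFit, eBayes) in R 4.3.3, with group as the only term (3 residual and 3.63 prior degrees of freedom), 2-sided, with Benjamini-Hochberg adjustment over all genes at 0.05. For 31 genes no probe had a value on all arrays. An SE is limma's moderated one. The fit was tested on simulated data. Where leaving out an array left a group with 1, its spread was taken to equal that of the other group. Alternatives are given in the closing section.

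The rule named Rela, Sirt6, the NF-kB subunits and inhibitors, the Y-linked genes, the 10 genes each way of smallest p whose groups do not overlap, the 5 each way with the widest gap, and up to 5 members of each described list by moderated t. The 42 lists, the members and the tests were chosen with earlier results of these data known, so the lists are no independent evidence. Some genes are in more than 1 list, among them Lox, Igfbp6, Ier3, Vcam1 and Cxcl13, so the lists are not separate from each other. Promoters are RefSeq's, build GRCm38.p6, which served for names too.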

Additional observations from a re-analysis of the deposited data

How the results depend on the processing

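The values depend on few arrays and on the spread model. With array weights 67 genes were called (14 higher, 53 lower), with the weights at 2.48 for both knockout arrays and 0.33, 1.34 and 0.37 for the heterozygous arrays. Leaving out the 25% least variable genes (variance-filtered), 135 were called (54 higher, 81 lower), where the prior degrees of freedom became infinite. With the replicate number as a block 42 were called (20 higher, 22 lower), with 1 residual degree of freedom. The weighted and the variance-filtered sets shared 42 genes, the weighted and blocked sets 20, and the variance-filtered and blocked sets 39. The weighted, variance-filtered and blocked sets held 18, 18 and 12 of the 20 genes named by smallest p. All of these fits used the same arrays, and the 20 genes were picked for small p in the main fit. Such sharing is therefore no separate result. The labels do not say that a number marks a shared litter or day, so the numbers were not taken to pair the samples. Deviations of same-numbered arrays correlated at -0.41 and -0.40, while arrays of different number correlated at -0.07 to 0.41. The deviations of the knockout arrays from their mean mirror each other, so these correlations do not settle whether numbers mark pairs. All other alternatives, each array left out included, called 0 genes, and their smallest adjusted p was 0.0634. The count of genes without overlap was 3471 to 4753 when 1 array was left out, since leaving out an array cannot lower it. The Rela difference ranged from -0.92 to -0.19 and kept its sign.

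Signs reversed for some NF-kB and sex-linked genes. The replicate block gives the same differences as leaving out heterozygous array 3. There Bcl3 was 0.23, Cyld 0.20, Map3k14 0.13, Rel 0.66, Uty 0.01 and Kdm5d -0.05. For the settings that follow the cause was not tested. With array weights Ikbkb was -0.24, Kdm5c -0.33, Kdm5d -0.03, Nfkbid -0.10, Rel 0.18, Tab2 -0.20 and Uty 0.09. With quantile normalization Kdm5c was -0.18, Nfkbid -0.09 and Uty 0.09. With equal median absolute deviation Ikbkb was -0.06, Kdm5c -0.27, Nfkbid -0.10, Tab2 -0.00 and Uty 0.46, and with the values as deposited Nfkbid was -0.00. With each probe on its own, taking the probe of smallest absolute t, Cyld was 0.27, Ikbkb -0.04, Nfkbie -0.01, Tnip1 -0.29 and Traf6 0.01.

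Leaving out 1 array at a time, the ranges were Nfkbiz from -1.77 to 0.07, Ikbkg from -2.11 to 0.59, Tnip1 from -0.16 to 1.35, Bcl3 from -0.83 to 0.23, Rel from -1.04 to 0.66, Relb from -0.34 to 0.47, Nfkbie from -0.25 to 0.49, Cyld from -0.44 to 0.22, Ikbke from -0.47 to 0.65, Ikbkb from -0.57 to 0.39, Tab2 from -0.20 to 0.26, Map3k14 from -0.38 to 0.34, Nfkbid from -0.56 to 0.59, Ddx3x from -0.73 to 0.32, Uty from -0.25 to 0.01, Kdm5c from -0.42 to 0.46 and Kdm5d from -0.05 to 0.09.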

Other observations

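Some genes had values in 1 group only and entered no comparison. Values on both knockout arrays and on no heterozygous array were found for 106 genes, values on all heterozygous arrays and on no knockout array for 15, and 2806 genes had a value on no array. The blanks follow a filter of the authors that the sources used here do not state, so they do not show absence. Among the 15, Serpinb9e, of the serine protease inhibitor family, read 3.34 on the library labelled heterozygous 1 and 3.15 and 3.24 on heterozygous arrays 2 and 3. Among the 106, Apod, a lipid carrier of stromal cells, read 2.53 and 3.27, and Bnc2, a zinc finger protein of fibroblasts, read 2.65 and 3.41. These 3 were chosen after their values were seen.

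Liver and skeletal muscle genes had 12 of 17 higher at a median difference of 0.71, which was 0.41 without the library labelled heterozygous 1, 1.75 without heterozygous array 2, -0.12 without heterozygous array 3 and -0.31 with array weights. Proteasome genes had 37 of 39 higher on the heterozygous mean, 5 without overlap (12.8%, beside 14.4% of all genes), at a median difference of 0.40. Genes of endoplasmic reticulum stress had 21 of 27 higher at 0.43, which was -0.00 without heterozygous array 2. Glycolysis and hypoxia genes had 23 of 31 lower at -0.37, which was -0.06 without heterozygous array 3. Toll-like receptors and adaptors lay at -0.12 and DNA repair genes at 0.16. Platelet and megakaryocyte genes lay at 1.5 on heterozygous array 2, at -1.20 and -1.40 on the other heterozygous arrays and at 0.04 and -0.43 on the knockout arrays, with 0 of 15 members without overlap.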
